A study of Mus musculus with 12 samples.

Results

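Transcript levels of 8 voltage-gated channel genes of 3 families were followed across the mouse cortex and cerebellum of a spinocerebellar ataxia type 1 (SCA1) model: Kcnq3 and Kcnq5 (Kv7 potassium channels), Kcnh1, Kcnh3 and Kcnh7 (EAG-type potassium channels), and Hcn2, Hcn3 and Hcn4 (hyperpolarization-activated channels). They were chosen by gene symbol, with earlier results of these data known. All 8 were found among the 15759 entries of the deposited table and passed the filter of a mean of at least 10 normalized counts. From the same families 6 other genes (Kcnq1, Kcnh2, Kcnh4, Kcnh5, Kcnh6 and Kcnh8) served for comparison.

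Kv7 subunits assemble as tetramers and, in neurons, carry the M-current, a slow non-inactivating potassium current that holds back repetitive firing and is shut off by muscarinic receptors through loss of membrane phosphoinositide. EAG-type channels form the ether-à-go-go (Kcnh1, Kcnh5), ERG (Kcnh2, Kcnh6, Kcnh7) and ELK (Kcnh3, Kcnh4, Kcnh8) groups, which differ in the voltage and speed at which they open and close. HCN channels open on hyperpolarization, are tuned by cyclic AMP and carry the inward pacemaker current that sets resting potential and dendritic integration in cortical pyramidal cells, thalamic relay cells and cerebellar neurons.

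Poly-adenylated RNA was measured in 12 libraries, 3 for each of 4 groups: WT cortex (libraries B, C and D), SCA1 KI cortex (A, E and F), WT cerebellum (2, 4 and 6) and SCA1 KI cerebellum (1, 3 and 5). SCA1 KI mice (Atxn1 154Q/2Q) express an expanded ataxin-1 from the endogenous locus in every cell that uses the gene, WT mice were their littermates, all were C57BL/6J and 12 weeks of age, and each region was macro-dissected whole. According to the labels the mice were male, but the study's methods speak of both sexes. The cerebellar libraries came from an earlier project of the same group, so region and sequencing project cannot be told apart. Nothing in the sources used here says that each library came from 1 animal, and p-values measure the spread between these libraries.

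The libraries held 29520855 to 51311309 reads on genes. The values are counts divided by 1 size factor per library (normalized counts), and in every library 100% of them came out as whole reads within 0.01 of a read. Atxn1 itself, whose level does not check an expanded allele, had 6521 to 8147 normalized counts in WT and 4604 to 7249 in SCA1 KI cortex, and 3628 to 3737 in WT and 3717 to 4138 in SCA1 KI cerebellum. The regional labels held: summed cerebellar granule cell markers were 1869 to 2943 normalized counts in the cortex libraries and 149988 to 212658 in the cerebellar ones. Summed over 9 markers of cortical excitatory neurons, the cortex libraries held 63150 to 95187 and the cerebellar ones 18996 to 28535. These 9 differed widely: Fezf2 reached at most 0.115% of its WT cortex mean in the cerebellum, whereas Neurod2 averaged 125% in WT cerebellum.

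The genes lie on 6 chromosomes (GRCm38, GENCODE annotation). Kcnq5 spans chr1:21398403-21961942 on the minus strand and Kcnh1 chr1:192190774-192510159 on the plus strand. Kcnh7 spans chr2:62693414-63184287 (minus), Hcn3 chr3:89146074-89160196 (minus), Hcn4 chr9:58823412-58863175 (plus) and Hcn2 chr10:79716634-79736108 (plus). Kcnq3 (chr15:65986387-66286642, minus) and Kcnh3 (chr15:99224861-99242817, plus) share a chromosome. Exons of 4 of the 8 overlap exons of a gene on the opposite strand, by 711 bases for Hcn3 (Pklr), 696 for Kcnh7 (Gca), 237 for Kcnq5 (Gm26580) and 1 for Kcnh3 (Mcrs1). Whether reads were counted by strand is not given in the sources used here, so reads in those stretches cannot be told apart.

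Promoters of 3 genes that fell in the SCA1 KI cortex are shown here beside that of Hcn2, which did not pass the genotype test, so that their base composition can be compared. RefSeq sequences (GRCm38.p6) were at hand for 5 of the 8 genes (Kcnq5, Kcnh1, Kcnh7, Hcn2 and Hcn4). Each line gives the 240 bases from 250 to 11 bases before the start annotated by RefSeq, 5′ to 3′ on the strand of the gene. Capitals mark GC boxes, the letters GGGCGG read on either strand.
Kcnq5: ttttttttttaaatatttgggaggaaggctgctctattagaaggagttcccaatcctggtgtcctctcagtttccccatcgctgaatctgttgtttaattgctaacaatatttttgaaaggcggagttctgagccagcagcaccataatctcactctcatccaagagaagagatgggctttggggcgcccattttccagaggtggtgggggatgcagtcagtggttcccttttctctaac
Kcnh1: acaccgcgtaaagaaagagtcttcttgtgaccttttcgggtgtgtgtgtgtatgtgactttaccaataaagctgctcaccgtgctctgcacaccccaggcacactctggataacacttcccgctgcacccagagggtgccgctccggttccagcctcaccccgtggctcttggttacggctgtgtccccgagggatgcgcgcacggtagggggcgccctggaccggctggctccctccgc
Kcnh7: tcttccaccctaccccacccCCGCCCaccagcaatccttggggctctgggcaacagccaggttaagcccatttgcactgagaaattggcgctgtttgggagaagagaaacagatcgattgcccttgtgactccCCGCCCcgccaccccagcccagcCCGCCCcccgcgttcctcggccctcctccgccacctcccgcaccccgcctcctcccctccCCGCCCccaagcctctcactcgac
Hcn2: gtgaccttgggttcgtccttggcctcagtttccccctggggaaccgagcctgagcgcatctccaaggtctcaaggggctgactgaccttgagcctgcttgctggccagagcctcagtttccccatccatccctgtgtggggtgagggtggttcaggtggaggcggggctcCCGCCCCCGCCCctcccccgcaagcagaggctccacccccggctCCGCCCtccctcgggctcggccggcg

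These windows were chr1:21962661-21962900 (minus strand) for Kcnq5, chr1:192190527-192190766 (plus) for Kcnh1, chr2:63184298-63184537 (minus) for Kcnh7 and chr10:79716384-79716623 (plus) for Hcn2. The RefSeq start of Kcnq5 lies upstream of the GENCODE one, so that its window does not adjoin the span given above. GC content was 45.4% for Kcnq5, 61.3% for Kcnh1, 67.1% for Kcnh7, 69.2% for Hcn2 and 70.4% for Hcn4, against a median of 52.1% over 27025 promoter windows of the same length. GC boxes numbered 4 for Kcnh7, 3 for Hcn2, 2 for Hcn4, and 0 for Kcnq5 and Kcnh1, and 31.5% of all windows held at least 1. Capicua, the repressor that binds ataxin-1, recognises the octamers TGAATGAA and TGAATGGA, and neither octamer, on either strand, was in any of the 5 windows (1.96% of all windows held one). The cyclic AMP response element TGACGTCA (406 of 27025 windows) and the TATA box TATAAA (12.7% of all windows) were also in none of the 5, on either strand. The letters present or missing in these windows say nothing about whether a factor binds.

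In WT tissue the 8 genes divided by region. Of the 8, 6 were higher in cortex than in cerebellum, Hcn4 was lower, and Hcn2 did not pass the test, so that 7 of 8 passed where 61.7% of all tested genes did (31.0% higher and 30.7% lower in cortex). Here and below, a gene passed the test at a Benjamini-Hochberg adjusted p under 0.05 and an absolute log2 difference (LFC) over 0.25 in limma, on log2(normalized count + 1).

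Kcnh3, an ELK channel of forebrain pyramidal cells, gave the widest regional contrast. It read 8138, 8210 and 8517 normalized counts in WT cortex libraries B, C and D and 66.6, 83.1 and 86.2 in WT cerebellar libraries 2, 4 and 6. The LFC, cortex minus cerebellum, was 6.71 (standard error 0.16, limma adjusted p = 6.26e-12). Kcnq5 followed with an LFC of 4.71, Kcnh7 with 3.11, Kcnq3 with 2.35, Kcnh1 with 1.15 and Hcn3 with 0.56, and in each of the 6 every cortex library lay above every cerebellar one (full separation, in either direction, held for 7 of the 8 genes and 69.9% of all). Hcn4 was the reverse, with an LFC of −0.86 (standard error 0.29, limma adjusted p = 0.0191), and its call was lost when WT cerebellar library 2 or 6 or WT cortex library B was left out. For Hcn2 the interval of the LFC ran from −0.23 to 0.16. Once each library's dependence on the length and GC content of each gene's longest transcript was taken out, Hcn2 was lower in cortex by the test (LFC −0.37).

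Per kilobase of exon, Hcn2 ranked first of the 8 in every group. The length is that of all annotated exons merged, whichever isoform was expressed, so the ranking depends on it. Undivided, the WT cortex mean of Hcn2 (6858) lay below those of Kcnh3 (8288) and Kcnq5 (6910). Per kb, Hcn2 stood at 2147 ± 22 normalized counts in WT cortex (SD, n = 3), above Kcnh3 at 1440 ± 35. Kcnq5 (899 ± 35) and Kcnh1 (835 ± 79) came next with overlapping libraries, then Kcnq3 (214 ± 20) and Kcnh7 (202 ± 6.8), which overlapped too, then Hcn3 (132 ± 17) and Hcn4 (24.7 ± 6.8). In WT cerebellum Kcnh3 moved from the second place to the last, at 13.7 ± 1.8 per kb. There Hcn2 (2212 ± 243) was followed by Kcnh1 (378 ± 55), Hcn3 (88.8 ± 4.7), Hcn4 (44.6 ± 11), Kcnq3 (42.2 ± 7.1), Kcnq5 (36.2 ± 15) and Kcnh7 (23.6 ± 4.2), and from Hcn4 to Kcnh7 each gene overlapped its neighbour in the order.

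**Figure D1:**
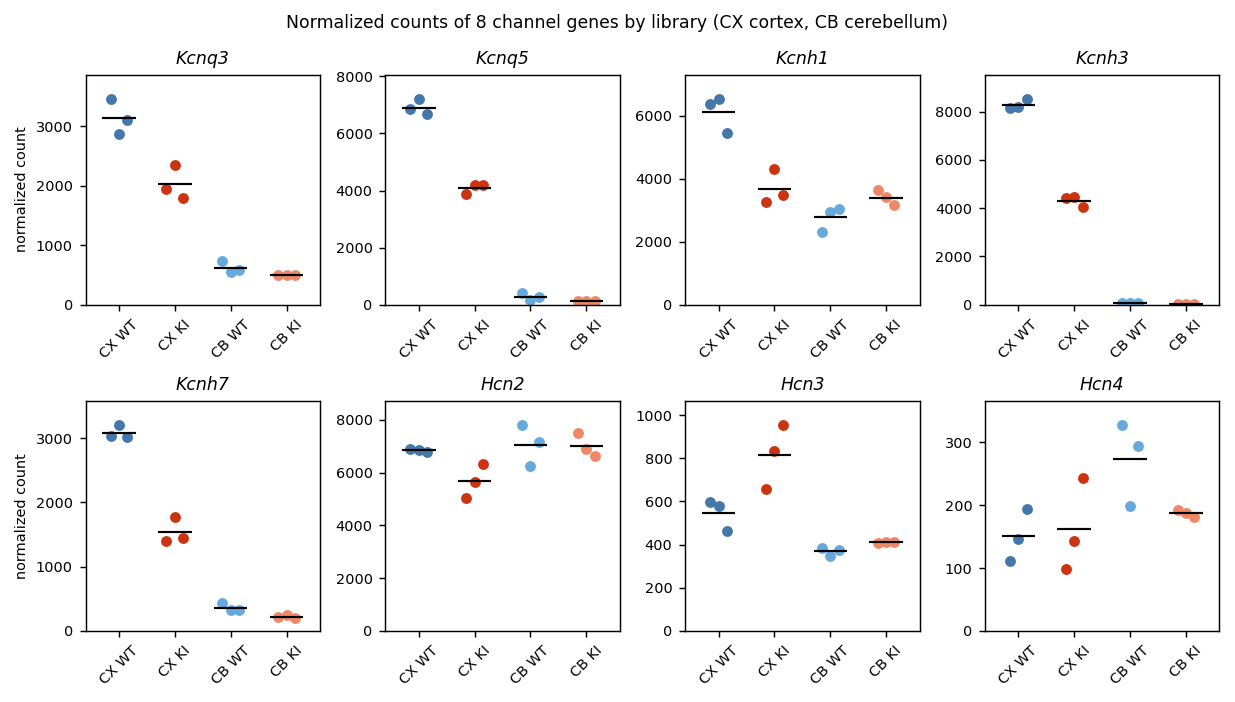
Normalized counts (y axis, linear from 0, own scale per gene) of the 8 genes in each library, by group on the x axis (CX cortex, CB cerebellum, WT wild type, KI SCA1 KI). Points are libraries and black lines are means of 3. In the 5 potassium channel genes every SCA1 KI cortex library lies below every WT one, in Hcn3 every one lies above, and the Hcn4 libraries of the cortex overlap.

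In the SCA1 KI cortex all 5 potassium channel genes among the 8 fell, to between 49.6% and 64.3% of the WT level, Hcn3 rose to 148%, and Hcn2 and Hcn4 did not pass the test. The 5 genes that fell compare with 10.8% of all tested genes called lower, and the 1 that rose with 4.82% called higher (15.6% in all). The median LFC over the 8 was −0.69, against −0.0028 over all 15369 tested genes. In 7 of the 8 genes SCA1 KI and WT libraries were fully separated, as in 30.9% of all genes tested. In bulk tissue, fewer cells of a type and less RNA per cell cannot be told apart.

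Kcnq3 is a Kv7 subunit that joins other subunits of its family in heteromeric M-channels. It read 3459, 2874 and 3108 normalized counts in WT cortex libraries B, C and D and 1946, 2345 and 1798 in SCA1 KI libraries A, E and F. No libraries overlapped, and the LFC was −0.64 (standard error 0.12, limma adjusted p = 0.00282).

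Kcnq5, a Kv7 subunit of cortical and hippocampal neurons, read 6847, 7202 and 6680 in the WT and 3879, 4190 and 4189 in the SCA1 KI cortex. The groups stood far apart, and each varied little within itself. The LFC was −0.76 (standard error 0.21, limma adjusted p = 0.0228). The spread was estimated over all 12 libraries, and with the cortex fitted alone the adjusted p for Kcnq5 was 5.09e-04 (limma, same LFC). In the fit of all libraries the call was lost without SCA1 KI cortex library A (LFC −0.72, adjusted p = 0.0640), without WT cortex library B (−0.76, adjusted p = 0.0545) and without WT cortex library C (−0.73, adjusted p = 0.0753).

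Kcnh1, the ether-à-go-go channel Kv10.1, read 6382, 6524 and 5458 in WT and 3273, 4300 and 3476 in SCA1 KI cortex. The highest SCA1 KI library lay below the lowest WT library, with an LFC of −0.74 (standard error 0.12, limma adjusted p = 0.00115). Kcnh3 read 8138, 8210 and 8517 against 4427, 4472 and 4046 in cortex libraries A, E and F. The SCA1 KI libraries lay close together at 52.0% of WT, and the LFC was −0.94 (standard error 0.16, limma adjusted p = 0.00149).

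Kcnh7, the ERG channel Kv11.3, fell furthest of the 8 in the cortex. It read 3027, 3198 and 3013 in WT and 1396, 1767 and 1443 in SCA1 KI, with an LFC of −1.01 (standard error 0.13, limma adjusted p = 1.90e-04). Its overlapping neighbour Gca, a calcium-binding protein gene, had an LFC of −0.10 (limma adjusted p = 0.527).

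Among the HCN genes, Hcn3 went the other way from the potassium channels. It read 595, 580 and 465 normalized counts in WT and 659, 834 and 952 in SCA1 KI cortex libraries A, E and F, so that the lowest SCA1 KI library lay above the highest WT one. The LFC was 0.57 (standard error 0.13, limma adjusted p = 0.00857), and it stayed past the threshold in each of the 12 fits that left out 1 library, at 0.45 to 0.71. In the other settings of limma, edgeR and DESeq2 the adjusted p ran from 4.49e-04 to 0.0452. Pklr, whose exons overlap those of Hcn3, had no entry among the values, so its own course could not be given. Hcn3 encodes an HCN subunit that gates slowly and responds little to cyclic AMP.

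Hcn2 read 6914, 6880 and 6781 in WT and 5056, 5635 and 6347 in SCA1 KI cortex. The WT libraries lay within a narrow range and all SCA1 KI libraries lay below it, with an LFC of −0.28 (95% interval −0.48 to −0.08, limma adjusted p = 0.0525). This was just short of the threshold, and DESeq2 on the recovered reads called it lower (LFC −0.27, adjusted p = 0.0331), as did limma without SCA1 KI cortex library F (LFC −0.36, adjusted p = 0.0194). Once the dependence on length and GC content was taken out, the LFC was −0.11 (adjusted p = 0.332).

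Hcn4, an HCN subunit of thalamic relay cells and the main one of the sinoatrial node, read 112, 146 and 195 in WT and 98.6, 143 and 243 in SCA1 KI cortex. The groups overlapped throughout, with an LFC of 0.04 and a 95% interval from −0.59 to 0.67. Its sign followed single libraries, at −0.31 without SCA1 KI library F and −0.16 without WT library B.

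The opposite course of Hcn3 also shows in a ratio taken within a library, which no size factor can move. The pair of genes was chosen after its values had been seen and carries no test. The ratio of Hcn3 to Hcn2 normalized counts was 0.0685 to 0.0861 in the WT cortex libraries and 0.130 to 0.150 in the SCA1 KI ones. In the cerebellum the genotypes overlapped, at 0.0494 to 0.0555 in WT and 0.0542 to 0.0621 in SCA1 KI.

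Summed over the 8 genes Kcnh1 to Kcnh8 and per kb, the EAG-type output of the cortex was 3558 ± 37 in WT and 1941 ± 127 in SCA1 KI (SD, n = 3). The sum over Hcn2, Hcn3 and Hcn4 was 2303 ± 32 in WT and 2000.2 ± 249 in SCA1 KI. Within this sum of 3 HCN genes in the cortex the share of Hcn3 was 5.71% ± 0.67 in WT and 9.77% ± 0.64 in SCA1 KI. Within the EAG-type sum, the share of Kcnh3 was 40.5% ± 1.4 and 38.7% ± 2.7. The Kcnh3 shares overlapped between the genotypes while those of Hcn3 did not.

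**Figure D2:**
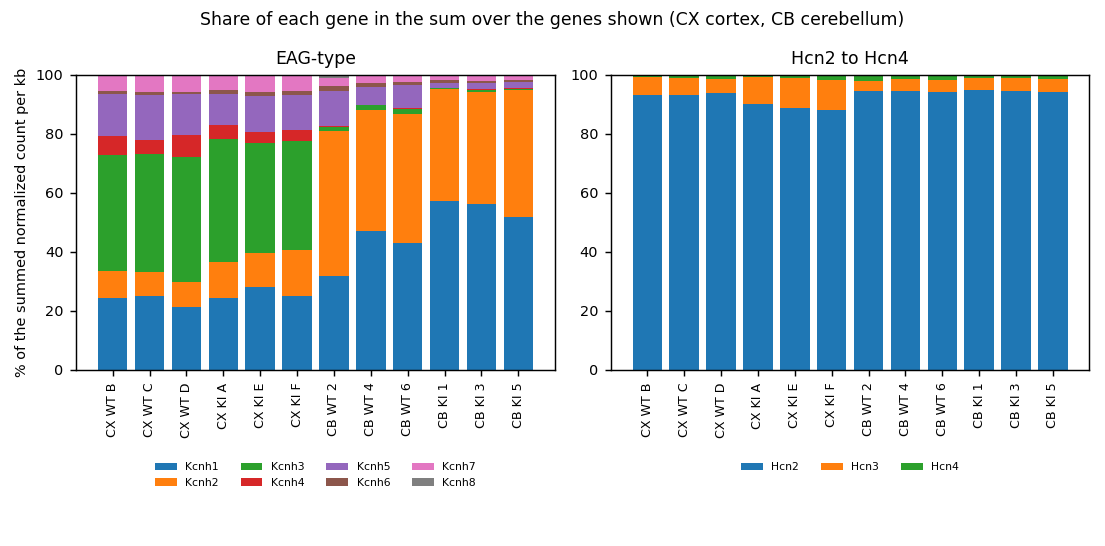
Share of each gene (stacked bars, y axis 0 to 100%) in the summed normalized count per kb of Kcnh1 to Kcnh8 (left) and of Hcn2, Hcn3 and Hcn4 (right), for each library on the x axis (CX cortex, CB cerebellum). Hcn3 takes 9.03% to 10.2% of the sum of the 3 HCN genes in the SCA1 KI cortex against 4.93% to 6.16% in the WT cortex, and Kcnh1 takes 51.9% to 57.2% of the EAG-type sum in the SCA1 KI cerebellum against 31.8% to 47.1% in the WT cerebellum.

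The relatives of these genes and their partners add context. Of the 6 other channel genes 2 fell in the SCA1 KI cortex and none rose, with 0 at an unadjusted p under 0.05 in the upward direction and 0 called higher by edgeR or DESeq2. Kcnh4 fell with an LFC of −1.55 (limma adjusted p = 5.15e-04) and Kcnh5 with −1.21 (limma adjusted p = 0.00198), both by more than any of the 8. Among 13 genes for Kv7 partners and M-current signalling 8 fell, where 10.8% of all tested genes were called lower. They were the muscarinic receptors Chrm1 (LFC −0.62) and Chrm3 (−0.96), the phospholipases Plcb1 (−0.70) and Plcb4 (−0.64), the lipid kinase Pip5k1c (−0.53), the calmodulin gene Calm3 (−0.29), the anchoring protein Akap5 (−0.67) and ankyrin-G, Ank3 (−0.34). Among 8 HCN partners 1 fell, Pex5l (TRIP8b), the subunit that traffics HCN channels to dendrites, with an LFC of −0.69 (limma adjusted p = 0.00348).

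Markers of cell types and neighbouring regions moved with genotype in the cortex as well, where 10.8% of all tested genes were called lower and 4.82% higher. Of 9 markers of cortical excitatory neurons 3 fell (Slc17a7, Rorb and Cux2) and the sum over the 9 was 93507 to 95187 normalized counts in WT and 63150 to 75628 in SCA1 KI. Of 6 astrocyte markers 4 fell (sum 255281 to 265122 against 123129 to 187669), while 0 of 6 oligodendrocyte and 0 of 6 microglia markers were called by limma, edgeR or DESeq2 and 0 had an unadjusted p under 0.05. Of 7 tested midbrain markers 3 rose (Pou4f1, Shox2 and Tal1), with a sum over the 8 listed of 303 to 368 in WT and 963 to 1690 in SCA1 KI. Of 7 striatum markers 2 fell (Ppp1r1b and Penk), with sums of 9431 to 19203 and 5938 to 11313. Of 8 markers each, 3 of forebrain interneurons and 5 of Purkinje cells fell, of 7 each, 2 of the thalamus and 1 of the hippocampus fell, and of 8 granule cell and 5 choroid plexus markers 0 were called by limma or edgeR, with 0 at an unadjusted p under 0.05 (1 granule cell marker by DESeq2). Their part in the results on the channel genes was not tested.

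In the SCA1 KI cerebellum 3 of the 8 genes fell, Kcnh3, Kcnq5 and Kcnh7, to 23.6%, 43.6% and 61.7% of the WT level. Among all tested genes 4.44% were called lower and 0.917% higher (5.36% in all), and the number called higher, 141, was 43 to 81 when SCA1 KI library 1, 3 or 5 or WT library 2 or 6 was left out and 231 in DESeq2. None of the 8 rose by limma, edgeR or DESeq2, and 1 of them, Kcnh1, was higher at an unadjusted p under 0.05, as were 6.00% of all genes. The genotypes were fully separated in 7 of the 8, as in 31.8% of all genes tested. The 3 genes that fell were also those called lower in both regions, a set of 1.28% of all tested genes.

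Kcnh3 read 66.6, 83.1 and 86.2 normalized counts in WT cerebellar libraries 2, 4 and 6 and 16.9, 24.0 and 13.6 in SCA1 KI libraries 1, 3 and 5. The values rested on 68 to 74 reads per WT library and 14 to 35 per SCA1 KI library, and the groups lay well apart. The LFC was −2.08 (standard error 0.16, limma adjusted p = 1.20e-05), on a scale whose pseudocount of 1 understates changes at such low counts. These levels were 0.949% of the WT cortex mean in the WT and 0.219% in the SCA1 KI cerebellum.

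Kcnq5 read 406, 176 and 254 in WT and 116, 115 and 111 in SCA1 KI cerebellum. The WT libraries spread widely while the SCA1 KI libraries nearly coincided, and all of them lay below WT. The LFC was −1.20 (standard error 0.21, limma adjusted p = 0.00434). Kcnh7 read 432, 326 and 318 in WT and 223, 242 and 194 in SCA1 KI, again without overlap, with an LFC of −0.70 (standard error 0.13, limma adjusted p = 0.00632). The alternative settings in limma, edgeR and DESeq2 that left out no single library gave a wide range. Their adjusted p ran from 2.90e-08 to 0.0451 for Kcnq5 and from 2.53e-05 to 0.0349 for Kcnh7.

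The other 5 genes did not pass the test. Kcnq3 read 740, 545 and 579 in WT and 501, 505 and 499 in SCA1 KI cerebellum, all below WT, with an LFC of −0.29 (limma adjusted p = 0.213). Kcnh1 read 2307, 2956 and 3045 in WT and 3626, 3406 and 3169 in SCA1 KI, all above WT, with an LFC of 0.30 (95% interval 0.04 to 0.57, limma adjusted p = 0.197). Both had libraries that did not overlap, and both fell short of the threshold once all genes were adjusted for.

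Hcn2 read 7791, 6249 and 7165 in WT and 7505, 6902 and 6622 in SCA1 KI cerebellum, fully overlapping, with a 95% interval of the LFC from −0.20 to 0.19. Hcn3 read 385, 347 and 374 in WT and 407, 411 and 411 in SCA1 KI, with an LFC of 0.15 (95% interval −0.12 to 0.43, limma adjusted p = 0.619). Hcn4 read 327, 199 and 294 in WT and 193, 188 and 181 in SCA1 KI, with an LFC of −0.51 (95% interval −1.14 to 0.12, limma adjusted p = 0.411). The SCA1 KI cerebellar libraries were tightly grouped for Hcn3 and Hcn4, and for Hcn4 the WT library nearest to them, library 4, stood only just above.

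**Figure D3:**
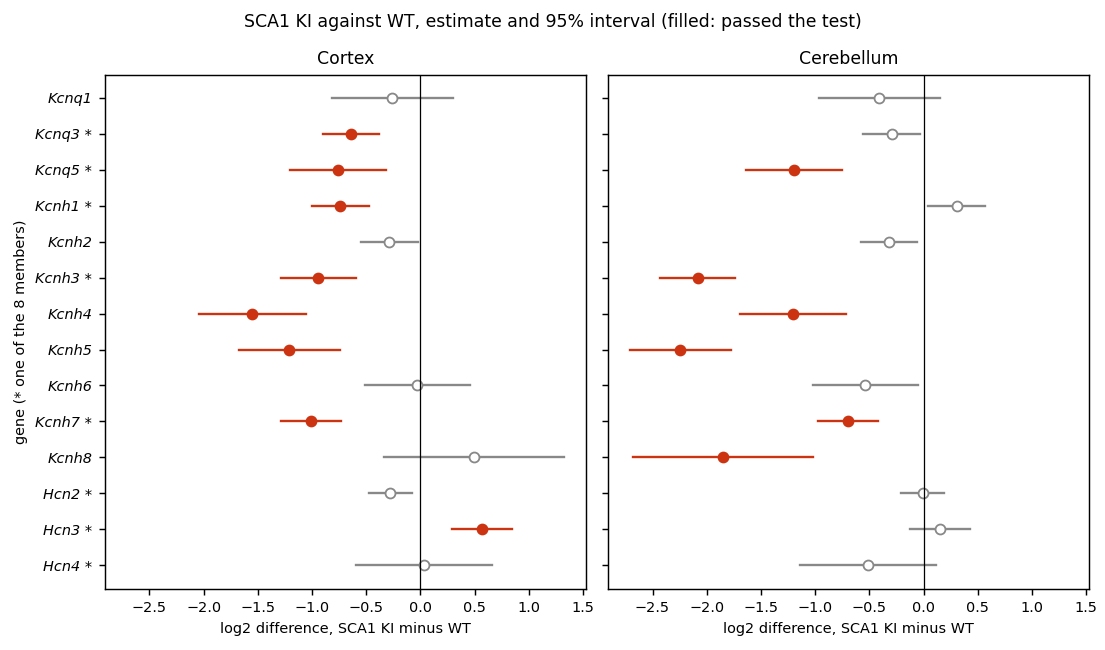
LFC of SCA1 KI minus WT (x axis, log2 scale) with its 95% interval for 14 channel genes of the 3 families, in cortex (left) and cerebellum (right). Filled red points passed the test, open grey points did not, and asterisks mark the 8 genes. In the cortex Hcn3 is the 1 gene of the 14 called higher and 7 were called lower, and in the cerebellum 6 were called lower.

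Among the 6 relatives 3 fell in the SCA1 KI cerebellum, Kcnh5 (LFC −2.24), Kcnh8 (−1.85) and Kcnh4 (−1.20). Of all tested genes 4.44% were called lower there. Kcnh4 and Kcnh8 were near the limit of detection there, at mean normalized counts of 13.6 and 30.9 in WT and 5.31 and 7.07 in SCA1 KI. The call of Kcnh4 was lost with the cerebellum fitted alone (limma adjusted p = 0.0601) and in edgeR (adjusted p = 0.0611), and that of Kcnh8 without SCA1 KI library 1 (limma adjusted p = 0.0626). Of the 13 genes of Kv7 partners and M-current signalling 2 fell, Chrm1 (LFC −1.37) and Chrm3 (−1.60). Of the 8 HCN partners 0 were called by limma or edgeR and 1 by DESeq2, and 1 had an unadjusted p under 0.05 in limma, Pex5l with an LFC of −0.46 (unadjusted p = 0.00477, adjusted p = 0.0720).

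The cerebellar genotypes also differed in markers listed for structures outside the cerebellum. Among all tested genes 4.44% were called lower and 0.917% higher. Of 7 tested midbrain markers 5 fell in SCA1 KI, and the sum over the 8 listed was 1318 to 1688 normalized counts in WT and 778 to 1064 in SCA1 KI. Otx2, not called, held a large part of that sum, with means of 656 in WT and 690 in SCA1 KI. Of 7 thalamus markers 4 fell (Tcf7l2, Lef1, Rgs16 and Slc17a6), with sums of 31903 to 34724 and 25266 to 27215. Most of the thalamus sum was Rora, not called, with means of 22073 in WT and 20884 in SCA1 KI. Tcf7l2 went from a mean of 1979 to 227 and the interneuron peptide gene Sst from 586 to 56.8. The midbrain sum was highest in WT library 2, where Kcnq3, Kcnq5, Kcnh7, Hcn2, Hcn3 and Hcn4 also had their highest value among the WT cerebellar libraries, whereas Kcnh1 and Kcnh3 had their lowest. Other sums set WT library 2 apart as well. It had the highest WT sum of thalamus (34724), oligodendrocyte (266831), astrocyte (161767) and microglia markers (4270). Its sums of granule cell (149988) and Purkinje cell markers (332875) were the lowest of the WT libraries. The part of these differences in the results on the channel genes was not tested. Of the 9 markers of cortical excitatory neurons 1 rose in the SCA1 KI cerebellum, Tbr1, with an LFC of 0.58 on means of 26.9 in WT and 40.9 in SCA1 KI, and 1 fell, Rorb, with an LFC of −0.49 on means of 929 and 652. The sum over the 9 was 18996 to 25361 in WT and 25825 to 28535 in SCA1 KI. Summed granule cell markers were 149988 to 212658 in WT and 201938 to 211350 in SCA1 KI, with 0 of 8 called by limma, edgeR or DESeq2 and 0 at an unadjusted p under 0.05. Oligodendrocyte markers summed to 178046 to 266831 in WT and 152414 to 152494 in SCA1 KI, and of the 6 limma and edgeR called 0 and DESeq2 3, with 5 at an unadjusted p under 0.05 in limma. Of the other lists 1 member each of the Purkinje cell, striatum, hippocampus, astrocyte and microglia markers and 2 of the forebrain interneuron markers fell. Of 5 choroid plexus markers 0 were called by the 3 tools and 0 had an unadjusted p under 0.05, and their sum ran from 821 to 75165 within the SCA1 KI group.

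**Figure D4:**
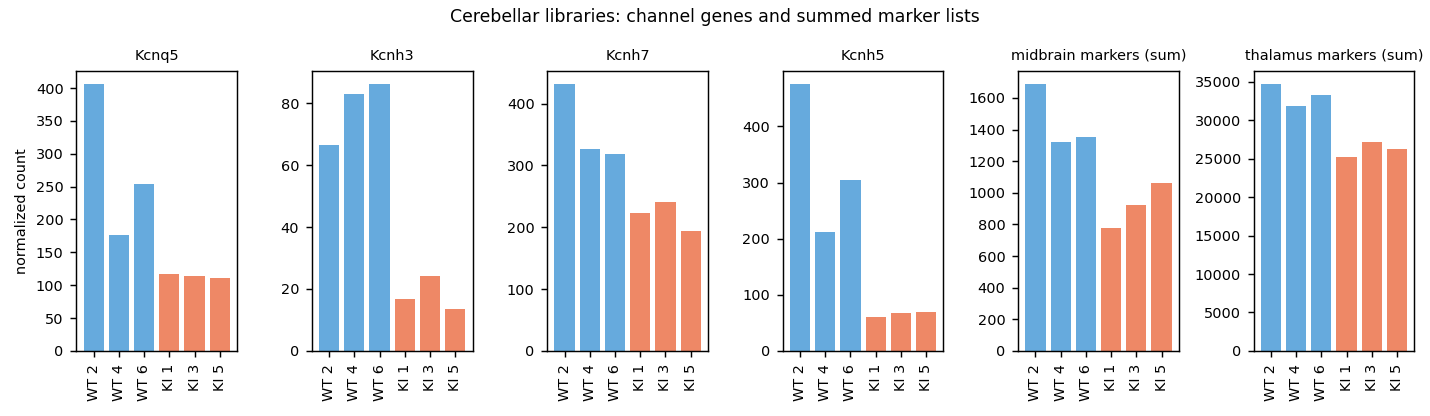
Normalized counts (y axis, bars from 0, own scale per panel) of Kcnq5, Kcnh3, Kcnh7 and Kcnh5 and summed normalized counts of the midbrain and thalamus marker lists in the 3 WT (blue) and 3 SCA1 KI (orange) cerebellar libraries. WT library 2 has the highest midbrain sum (1688), Kcnq5 (406) and Kcnh7 (432) but the lowest WT value of Kcnh3 (66.6). Most of the thalamus sum is Rora, which was not called (means of 22073 in WT and 20884 in SCA1 KI).

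Whether the genotype difference itself differed between the regions was tested as an interaction, for which no limit on size was set. Of the 8 genes 2 passed, 1 in each direction, where 8.15% of all tested genes did (3.26% above 0 and 4.89% below). For Kcnh1 the LFC of the cortex minus that of the cerebellum was −1.04 (standard error 0.17, limma adjusted p = 0.00284): it fell in the cortex (LFC −0.74) and stood at 0.30 in the cerebellum. Its SCA1 KI libraries overlapped between the regions, at 3273 to 4300 normalized counts in cortex and 3169 to 3626 in cerebellum, where the WT libraries stood apart at 5458 to 6524 and 2307 to 3045. For Kcnh3 the interaction was 1.14 (standard error 0.23, limma adjusted p = 0.00815), since it fell in both regions and by more in the cerebellum.

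The remaining 6 genes did not pass this test, and their intervals give how far the regions could differ. The interaction was 0.44 for Kcnq5 (95% interval −0.19 to 1.07), −0.31 for Kcnh7 (−0.70 to 0.08) and −0.34 for Kcnq3 (−0.71 to 0.02). For Hcn3 it was 0.41 (0.02 to 0.81, limma adjusted p = 0.206), so the rise of Hcn3 in the cortex was not shown to be particular to that region. Hcn2 (−0.27, from −0.55 to 0.01) and Hcn4 (0.55, from −0.34 to 1.44) completed the set. Among the M-current genes Plcb1, Plcb4, Pip5k1c and Calm3 passed the interaction, each with a more negative LFC in the cortex.

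Ratios between genes set the course of Kcnh1 against that of Kcnh7 and Kcnh5 within each library, again as a description of pairs chosen after their values were seen. The ratio of Kcnh1 to Kcnh7 was 1.81 to 2.11 in WT and 2.34 to 2.43 in SCA1 KI cortex, and 5.34 to 9.58 in WT and 14.1 to 16.4 in SCA1 KI cerebellum. The ratio of Kcnh1 to Kcnh5, the other ether-à-go-go channel, was 2.72 to 3.03 in WT and 3.77 to 4.17 in SCA1 KI cortex, and 4.85 to 14.0 in WT and 46.1 to 60.6 in SCA1 KI cerebellum. In both regions every SCA1 KI library lay above WT for either ratio. This does not hold for all relatives in the cortex. There the LFC was −0.74 for Kcnh1, but −0.29 for Kcnh2, −0.03 for Kcnh6 and 0.50 for Kcnh8, while Kcnh3 (−0.94) and Kcnh4 (−1.55) fell more. The share of Kcnh1 in the EAG-type sum of the cortex was 23.5% ± 2.0 in WT and 25.8% ± 2.1 in SCA1 KI, with overlapping libraries. The share of Kcnh1 in the EAG-type sum per kb was 40.6% ± 7.9 in WT and 55.1% ± 2.8 in SCA1 KI cerebellum (SD, n = 3), while that sum itself was 938 ± 71 and 842 ± 21.

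In the SCA1 KI groups the order of the genes per kb changed little. In the cortex Hcn3 (196 ± 35) moved ahead of Kcnq3 (138 ± 19), with overlapping libraries, and of Kcnh7 (101 ± 13), from which it stood apart. In the cerebellum Kcnq3 (34.1 ± 0.2) stood above Hcn4 (30.6 ± 1.0), the reverse of WT, where they overlapped. The first and last places, Hcn2 with Hcn4 in the cortex and Hcn2 with Kcnh3 in the cerebellum, were the same in both genotypes.

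For each of the 8 the genes with the most similar profile were listed by the smallest root mean square difference of centred log2 values over the 12 libraries, a measure that regional differences dominate. For Kcnq3 these were Pde8b (0.0906), Klf16 (0.127) and Dmtn (0.133), and for Kcnq5 Dlgap2 (0.130), Mal2 (0.199) and Mpped1 (0.230). For Kcnh1 they were Hivep2 (0.0826), Kcnj6 (0.108) and Dlgap1 (0.125), for Kcnh3 Egr3 (0.381), Kcnj4 (0.401) and Rgs14 (0.430), and those near Kcnh7 included Chn1 (0.162) and Lpl (0.199). Kcnj6 and Kcnj4 encode potassium channels too. For Hcn2 the nearest were Bmp2k (0.0773), Agpat3 (0.0798) and Eltd1 (0.0856), for Hcn3 Ccdc39 (0.136), Hps1 (0.148) and Dpysl3 (0.166), and for Hcn4 Emilin1 (0.236), Zim1 (0.244) and Fgl2 (0.251). The distances of Kcnh3 and Hcn4 were the widest, so that no other gene followed them closely.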

How the data were processed

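Whole cortex and cerebellum of SCA1 KI and WT mice were measured as 12 poly-A libraries. The authors mapped paired reads to mm10 (STAR), summed them per gene (featureCounts) and divided them by DESeq2 size factors (versions not given in the sources used here), and deposited these normalized counts, a signal from which whole reads were recovered. From them, log2(normalized count + 1) was fitted here, for 15369 genes averaging 10 normalized counts or more, with limma 3.58.1 in R 4.3.3 (trend, 4 group means, 12 libraries), with Benjamini-Hochberg adjustment over all genes. The methods of the study use DESeq2, which needs counts, so edgeR 4.0.16 and DESeq2 1.42.0 on the recovered reads were alternatives, beside those in the closing section. The fits were run on simulated counts with the same dispersion for every gene and changes in the SCA1 KI cortex only. Only the cortex genotype comparison was tested on them, so they do not check the cerebellar or interaction tests. Symbols were matched to GENCODE vM21 (15009 of 15758). Depths of 29520855 to 51311309 reads on genes set the precision. All 8 genes were named, and from other lists those called in a genotype comparison. The members, gene lists and marker lists were chosen with earlier results of these data known. Library columns name region and genotype but not the replicate numbers of the labels. Some genes of these families and lists are not reported here.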

Additional observations from a re-analysis of the deposited data

Results flagged for a closer look

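In 3 of the 14 channel genes the genotype difference in the cortex differed from that in the cerebellum by the interaction test in limma (Benjamini-Hochberg adjusted p). Of all tested genes 8.15% passed that test. Kcnh1 had an interaction, cortex minus cerebellum, of −1.04 (adjusted p = 0.00284), with LFC of −0.74 in the cortex and 0.30 in the cerebellum. Kcnh3 had an interaction of 1.14 (adjusted p = 0.00815), with LFC of −0.94 and −2.08. Kcnh8 had 2.35 (adjusted p = 0.0181), with 0.50 and −1.85, on means of 7.07 to 30.9 normalized counts, and it lost the call without SCA1 KI cerebellar library 1 (2.24, adjusted p = 0.0505) and without WT cortex library C (2.09, adjusted p = 0.0506). Kcnh5 missed the threshold in limma (1.03, adjusted p = 0.0555) and passed it in edgeR (1.16, adjusted p = 0.0352), in DESeq2 (1.14, adjusted p = 0.00376), in limma with the length and GC trend removed (1.04, adjusted p = 0.0474) and without WT cerebellar library 4 (1.31, adjusted p = 0.00400). The calls of Kcnh1 and Kcnh3 held in each of the 12 fits that left out 1 library. Midbrain and thalamus markers also differed between the cerebellar genotypes, as given beside the cerebellar results, and their part in these differences was not tested.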

How the results depend on the processing

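The number of the 8 genes called was 6 in the cortex, 3 in the cerebellum, 2 for the interaction and 7 between the WT regions, and it stayed within 1.5 times of these with a pseudocount of 0.5 or 5, without the filter or with a mean of at least 100, with the regions fitted separately (genotype comparisons), with median centring, removal of the length and GC trend, edgeR, DESeq2 and no limit on the LFC. The exception was a limit of 1 on the absolute LFC, which left 1 gene in the cortex, Kcnh7. Leaving out 1 library at a time gave 5 to 7 genes in the cortex, 3 to 3 in the cerebellum, 2 to 3 for the interaction and 6 to 7 between the WT regions. Among the LFC of the channel genes, signs reversed only for values that were not called: in the cortex Kcnh6 (0.039 with the length and GC trend removed, −0.11 to 0.086 with 1 library left out) and Hcn4 (−0.31 to 0.34 with 1 library left out), in the cerebellum Hcn2 (0.016 with median centring, 0.077 with the length and GC trend removed, −0.094 to 0.065 with 1 library left out), between the WT regions Hcn2 (−0.12 to 0.036 with 1 library left out), and in the interaction Kcnh2 (−0.084 to 0.16) and Kcnq1 (−0.086 to 0.32), each with 1 library left out. The cause was not tested.

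Over all genes, the number called in the cerebellum was 824, and 399, 454 or 512 without SCA1 KI library 1, 3 or 5. With the limit of 1 it was 312 there, 323 in place of 2402 in the cortex, 403 in place of 1253 for the interaction and 3620 in place of 9482 between the WT regions, and the interaction count was 783 or 833 without SCA1 KI cerebellar library 1 or 3. No paired analysis was possible because the library columns carry no replicate numbers of the labels. By direction, the number called higher in the cerebellum, 141, was 43 to 195 with 1 library left out, 220 with the region fitted alone and 231 in DESeq2, and in the cortex it was 393 in place of 741 with the region fitted alone. Kcnh3 rested on 14 to 35 reads per SCA1 KI cerebellar library, and the 3 libraries a group limit the precision.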
